A study of Sus scrofa with 24 samples.

Results

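The genes described here encode the respiratory chain, cytochrome c and the ATP synthase of the inner mitochondrial membrane, together with some of their assembly factors. They were chosen by symbol: every probe whose gene symbol begins with NDUF, SDH followed by A to D, UQCR, COX followed by a digit or ATP5, or is CYCS or CYC1. On the porcine array this gave 210 of 43603 probes, for 49 genes of the 6997 that had a symbol. Of these genes, 48 had at least 1 probe that was kept, out of 6381 named genes kept. Kept probes are those well above background on 3 or more of the 24 arrays. NDUFA12, a complex I accessory subunit, had a single probe, well above background on 2 arrays, and was not analysed further.

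The RNA was extracted from heart muscle of 9 domestic pigs, in which an infarct had been made without opening the chest and then reperfused, and each array holds 1 region of 1 pig. The secretome arm, 6 pigs given the secretome of apoptotic blood mononuclear cells by injection into the heart wall through a catheter, had 6 arrays of the infarct core, 6 of the border zone and 4 of the normal region. The medium arm, 3 pigs given placebo medium and called not treated in the labels, had 3, 3 and 2. Treatment followed the infarct by 1 month and tissue was taken 1 month later. Pigs of both arms had received aspirin and clopidogrel before and after the infarct. The border zone was the injection zone, the normal region is taken as the area that the protocol calls remote, and the design text names 8 randomized pigs per arm. The normal region is missing for secretome pigs 12 and 13 and for medium pig 40.

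In heart muscle, mitochondria fill much of each cardiomyocyte and supply nearly all of its ATP. Complex I takes electrons from NADH and complex II takes them from succinate, both pass them to ubiquinone, complex III passes them on to cytochrome c, and complex IV hands them to oxygen. Complexes I, III and IV pump protons as they do so, and the ATP synthase uses the returning protons to make ATP. Most subunits are encoded in the nucleus, a few in the mitochondrial genome, and several subunits of complex IV exist in a form of heart and skeletal muscle and a form found in most tissues.

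Each level below is a log2 value relative to the 75th percentile of its array, so that 0 is the level at that percentile. Levels of different genes come from different probes and are not set against each other. Each gene is read from its brightest kept probe. All 48 of these probes were well above background on all 24 arrays and none was saturated. The 75th percentile ranged from 210 to 617 intensity units and the share of probes well above background from 61.5% to 75.7%, both lowest on the border zone array of pig 40. The arrays were scanned in 2 series of 12, with all regions of a pig in the same series. The infarct core array of pig 40 held the lowest level of 39 of the 48 genes in that region, and the infarct core array of pig 15 the highest level of 44. In the border zone, pig 18 was lowest for 39 genes, and pig 40 was highest for 23 and lowest for 5. Pig 40 thus stood apart in both of its regions, and for many results values without it are given below beside those that use it.

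The probes that mattered most for the contrast between muscle and general forms of complex IV subunits are 60 bases long, and their bases 16 to 45 are shown, 5′ to 3′ as the array files give them. Capitals mark the polyadenylation signal hexamers AATAAA or ATTAAA where a stretch holds either.
COX8H: aggcagactggagacgggATTAAAgcttcc
COX7A1: aacaagcatcAATAAAtgttctggcttcct
COX7A2: ctgtggaccagtaatctgataactgagttc
COX6A1: ggcttaccttgtatccagtgatgaccatta
On the given strand AATAAA occurs in 9.60% of all probes of the array and ATTAAA in 4.16%, and on the other strand in 4.17% and 3.01%. The probes of COX7A1 and COX7A2 share no run longer than 7 bases, so the 2 probes are unlike in sequence. Neither probe was compared with the transcript of the other paralog, so binding to it was not tested.

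The first comparison sets the infarct core against the normal region, with both arms at equal weight. Transcripts of the respiratory chain and ATP synthase were lower in the infarct core through every complex: 47 of 48 genes fell and 1, COX6A1, rose. In limma with Benjamini-Hochberg adjustment over all probes, 27.6% of all 34360 probes were called lower and 25.4% higher, 53% in all. The median log2 difference was -1.76 over the 48 genes, against -0.05 over all probes and -0.06 over the named genes. For 24 of the 48 genes every infarct core array lay below every normal region array, against 5.25% of all probes. No gene was so separated in the higher direction, against 7.41% of all probes. In scan series 1 alone the median was -2.11 and in scan series 2 alone -1.52.

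**Figure D1:**
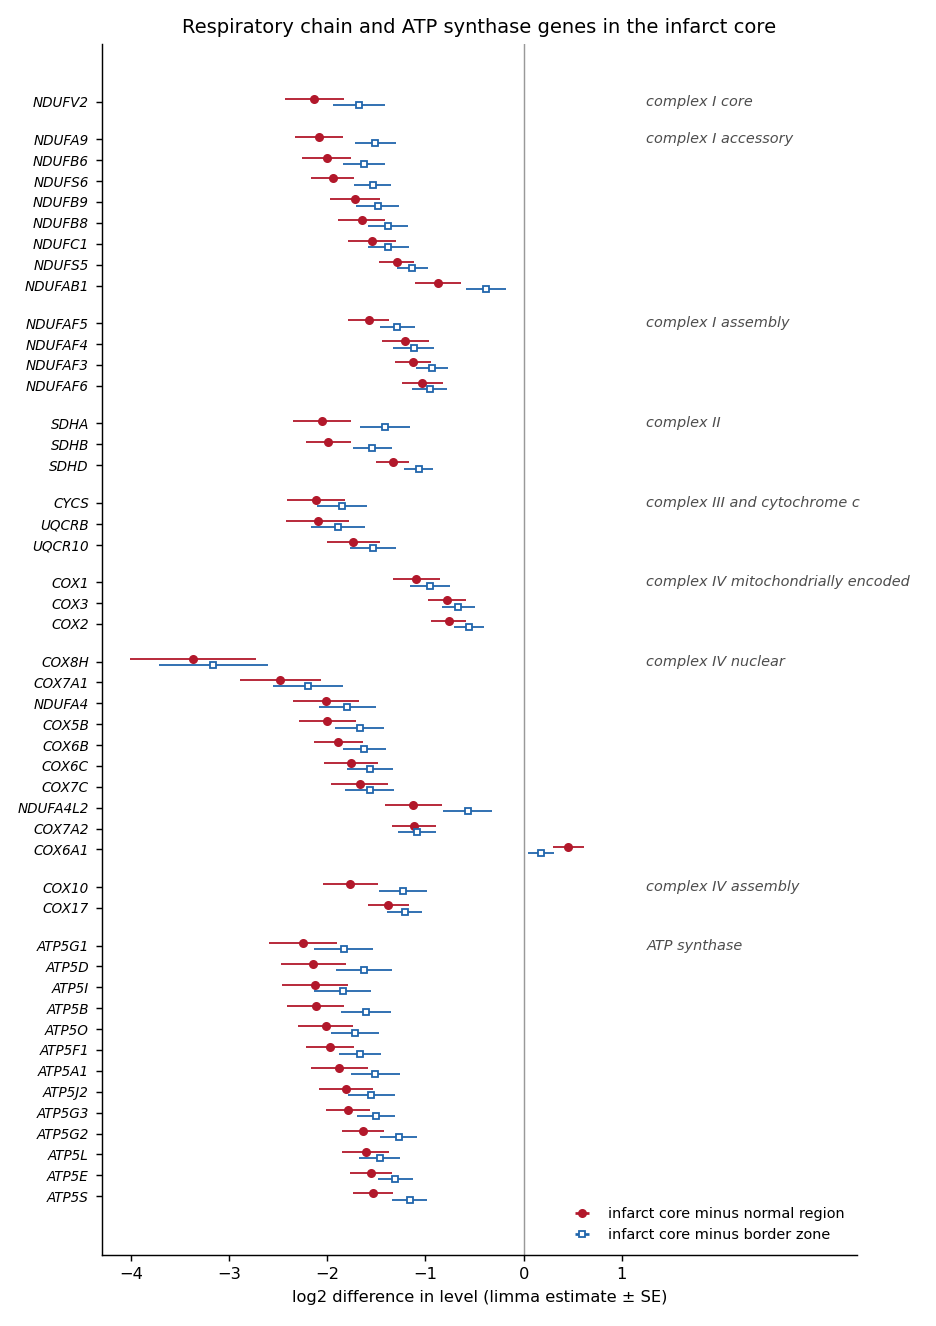
Log2 difference in level (limma estimate ± SE, horizontal axis) of 47 of the 48 genes, grouped by complex and ordered by size. Filled circles are infarct core minus normal region (9 and 6 arrays) and open squares infarct core minus border zone (9 arrays each). All genes shown but COX6A1 lie left of 0, with COX8H at -3.37 and -3.16 and COX6A1 at 0.46 and 0.18.

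These are bulk samples, so fewer cells of a type and less RNA per cell cannot be told apart. Of 15 listed cardiomyocyte markers, 11 were measured, and all 11 fell in the infarct core, with a median of -2.30. Their mean level per array was 2.51 to 8.68 in the infarct core, 7.63 to 9.25 in the border zone and, for the normal region, 8.62 to 9.25. The RNA of the calcium pump regulator phospholamban (PLN), for example, fell by 2.55 ± 0.47 (SE) on the log2 scale. All 12 measured fibroblast markers of 14 rose, with mean levels of 3.56 to 5.31 in the infarct core, 0.24 to 3.60 in the border zone and, for the normal region, 0.49 to 2.16. All 12 measured macrophage markers of 13 rose too, at 2.55 to 4.39, 1.41 to 3.01 and 1.39 to 2.19. Of the endothelial markers (7 of 9 measured) 2 fell. Of the genes listed for smooth muscle and pericytes (5 of 9 measured) 1 rose, CNN1, and 2 fell, SMTN and DES. The part of these shifts in the results was not tested.

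All 10 measured nuclear subunits of complex I fell in the infarct core, whether they form its catalytic core or surround it. The mitochondrially encoded subunits are described further below. NDUFV2, a core subunit that carries an iron-sulfur cluster, had levels of 3.03 to 6.28 in the infarct core (median 4.24) and 6.03 to 6.98 in the normal region (median 6.66). The groups overlapped only through pig 15, and NDUFV2 fell by 2.13 ± 0.30 (limma adjusted p = 7.4e-06).

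Among the accessory subunits NDUFA9, which sits at the junction of the membrane and matrix arms, fell most, by 2.08 ± 0.24. Its levels were 3.25 to 6.00 in the infarct core (median 4.27) and 6.30 to 6.64 in the normal region (median 6.58), with no overlap. NDUFB6 fell by 2.01 ± 0.25, NDUFS6 by 1.95 ± 0.22, and NDUFB9, NDUFB8, NDUFC1 and NDUFS5 by 1.72 to 1.29. NDUFAB1, the mitochondrial acyl carrier protein that also serves fatty acid synthesis, fell least. It was read by a single dim probe with a mean level of -1.73, and whether dim probes give smaller falls was not tested. It had -2.97 to -1.38 in the infarct core and -2.29 to -0.39 in the normal region, so the groups overlapped widely, and it fell by 0.87 ± 0.23 (limma adjusted p = 0.00338). Its call was lost with normexp background correction (adjusted p = 0.0794), without the pig block (adjusted p = 0.0503) and within scan series 1 (adjusted p = 0.0511), and with the authors' values its difference was -0.44.

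The 4 complex I assembly factors fell less than the core subunit NDUFV2 in point estimate, by 1.03 to 1.58. Each of the 4 was read by a single probe, with mean levels of -1.08 to 4.43. NDUFAF5, a methyltransferase-like factor that hydroxylates a complex I subunit, had -2.81 to -0.80 in the infarct core and -0.60 to 0.13 in the normal region. These groups did not overlap, and it fell by 1.58 ± 0.21. NDUFAF6 fell by 1.03 ± 0.21 (limma adjusted p = 0.000266), with levels of -2.07 to -0.41 in the infarct core and -0.79 to 0.38 in the normal region. NDUFAF3 and NDUFAF4, which work together early in assembly, fell by 1.13 ± 0.18 and 1.20 ± 0.24. NDUFAF4 was lower in 5 of the 6 pigs that had both regions.

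All 3 measured subunits of complex II, succinate dehydrogenase, fell. SDHA, the flavoprotein that oxidizes succinate, had 2.52 to 6.05 in the infarct core (median 4.27) and 6.23 to 6.80 in the normal region (median 6.55). No infarct core array reached the lowest normal region array, and SDHA fell by 2.05 ± 0.30 (limma adjusted p = 9.33e-06). SDHB, the iron-sulfur subunit, fell by 1.99 ± 0.23, and its 8 probes gave -2.35 to -1.99. SDHD, a membrane anchor, had 4.58 to 6.02 in the infarct core and 6.01 to 6.48 in the normal region and fell by 1.33 ± 0.17.

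Complex III was represented by UQCRB and UQCR10, and both fell with cytochrome c. CYCS, the mobile carrier between complexes III and IV and a trigger of apoptosis once released, had a median of 4.44 and at most 6.36 in the infarct core, and 6.30 to 6.86 in the normal region (median 6.47). Only the infarct core of pig 15 reached into the normal range, and CYCS fell by 2.12 ± 0.30 (limma adjusted p = 6.65e-06). Of its 12 probes, 11 were called lower. UQCRB, which helps to hold ubiquinone, fell by 2.10 ± 0.32, and UQCR10, a small subunit, by 1.74 ± 0.27.

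Complex IV held the widest range of all complexes, from the largest fall to the only rise. COX8H, the heart and muscle form of subunit VIII, had 0.09 to 7.96 in the infarct core (median 5.05), 5.98 to 9.03 in the border zone (median 8.46) and, for the normal region, 7.48 to 9.33 (median 8.44). The infarct core of pig 40 lay at 0.09, and the next lowest, pig 13, at 3.80. COX8H fell by 3.37 ± 0.64 in the infarct core against the normal region (limma adjusted p = 0.000177), a 10.3-fold lower level, and its difference was -2.70 without pig 40.

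COX7A1, the heart and muscle form of subunit VIIa, had 3.99 to 8.81 in the infarct core (median 6.72) and 8.89 to 9.73 in the normal region (median 9.31), with no overlap. It fell by 2.48 ± 0.41 (limma adjusted p = 4.23e-05), or 5.58-fold, with a difference of -2.09 without pig 40. COX7A2, the form of the same subunit found in most tissues, had 4.80 to 6.73 in the infarct core (median 5.64) and 6.51 to 6.96 in the normal region (median 6.88). The infarct core of pig 11 overlapped the normal range, and COX7A2 fell by 1.11 ± 0.23, with its 5 probes between -1.11 and -1.06. With quantile scaling COX7A2 was at -0.52 and COX7A1 at -1.79.

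**Figure D2:**
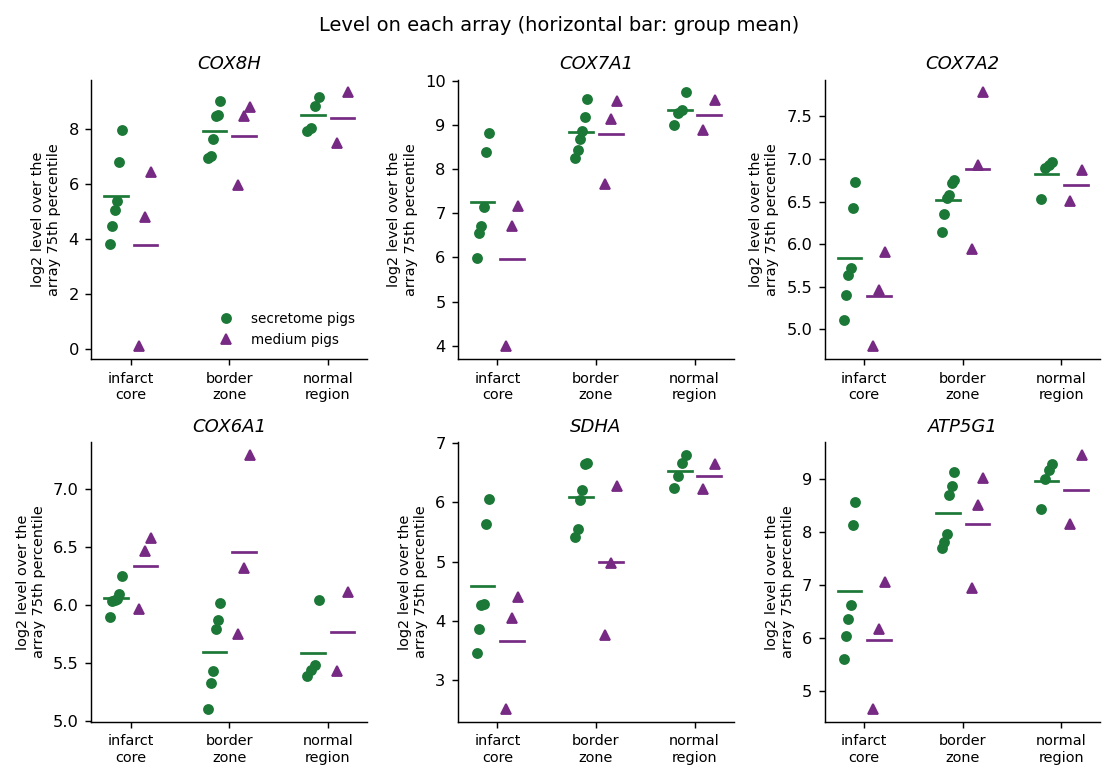
Log2 level over the array's 75th percentile (vertical axis) of 6 genes on each array in the infarct core, border zone and normal region. Circles are secretome pigs (6, 6 and 4 arrays), triangles medium pigs (3, 3 and 2) and bars group means. The infarct core of medium pig 40 is the lowest point in each panel except that of COX6A1, and the infarct core points of COX6A1 alone lie mostly above its normal region points.

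COX6A1, the form of subunit VIa found outside muscle, was the only gene of the 48 that rose. It had 5.90 to 6.57 in the infarct core (median 6.05) and 5.39 to 6.11 in the normal region (median 5.46), and it was higher in the infarct core in 6 of 6 pigs. The rise was 0.46 ± 0.16 (limma adjusted p = 0.0175), or 1.37-fold. Of its 6 probes, 5 gave 0.46 to 0.60 and the dimmest gave -0.21. The call was lost without pig 10 (0.48, adjusted p = 0.0646) and without pig 18 (0.39, adjusted p = 0.0988), within each scan series (0.63, adjusted p = 0.177, and 0.47, adjusted p = 0.122), without the pig block (adjusted p = 0.0645) and with normexp background correction (adjusted p = 0.239). With quantile scaling it was 1.01 and with the authors' deposited values 1.03.

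The other nuclear subunits of complex IV lay between these. NDUFA4, long counted with complex I and now assigned to complex IV, fell by 2.01 ± 0.33, COX6B by 1.89 ± 0.25, COX6C by 1.76 ± 0.28 and COX7C by 1.67 ± 0.29. The 3 probes of COX5B, a subunit that coordinates zinc, all fell, the largest difference being -2.23. NDUFA4L2, a paralog of NDUFA4 that is induced by hypoxia in cultured cells, had 0.33 to 2.75 in the infarct core (median 0.69) and 1.79 to 3.07 in the normal region (median 2.69). It fell by 1.12 ± 0.29 (limma adjusted p = 0.00265), in 5 of 6 pigs.

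COX10, which makes the heme group of complex IV, fell by 1.77 ± 0.28 and COX17, which delivers its copper, by 1.38 ± 0.21. COX10 had -4.41 to -1.75 in the infarct core and -1.85 to -0.82 in the normal region, and COX17 had 4.54 to 6.17 and 6.16 to 6.68. In both genes the infarct core of pig 15 alone reached the normal range.

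The catalytic core of complex IV is encoded in the mitochondrial genome by COX1, COX2 and COX3, and their median of -0.78 was the smallest of any group of subunits. COX1, which holds the site where oxygen is reduced, had 8.58 to 10.82 in the infarct core (median 9.63) and 10.44 to 11.24 in the normal region (median 10.97) and fell by 1.09 ± 0.24 (limma adjusted p = 0.000665). COX2, which receives electrons from cytochrome c, fell by 0.76 ± 0.18 (adjusted p = 0.00104) and COX3 by 0.78 ± 0.19 (adjusted p = 0.00187). These values depended on the scaling: with quantile scaling COX1 was at -0.39 and with the authors' deposited values at -0.34, while with quantile scaling COX2 was at 0.05 and COX3 at -0.03, and with the authors' deposited values COX2 was at -0.26 and COX3 at 0.03. With normexp background correction the calls of COX2 (-0.71, adjusted p = 0.117) and COX3 (-0.75, adjusted p = 0.12) were lost, and that of COX3 was lost within scan series 2 (-0.50, adjusted p = 0.0749).

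The many probes of these transcripts disagreed in size, and for COX2 and COX3 the brightest probe gave the smallest fall. The 24 COX1 probes ranged from -1.63 to -0.69, the 4 of COX2 from -1.42 to -0.76 and the 13 of COX3 from -1.82 to -0.78. Averaged over all probes of the gene, COX1 fell by 1.20, COX2 by 1.13 and COX3 by 1.24. All 13 protein genes of the mitochondrial genome were measured, and their differences varied in size. ATP6, an ATP synthase subunit with a mean level of 10.0, fell by 0.84, and CYTB, the cytochrome of complex III, with a mean level of 9.86, by 1.24. ND5 and ND4L, complex I subunits with mean levels of 7.62 and 7.46, fell by 2.08 and 2.03. ND6, the only protein gene on the other strand of the mitochondrial genome, had a mean level of -0.55 and gave 0.30 ± 0.30 (adjusted p = 0.424).

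**Figure D3:**
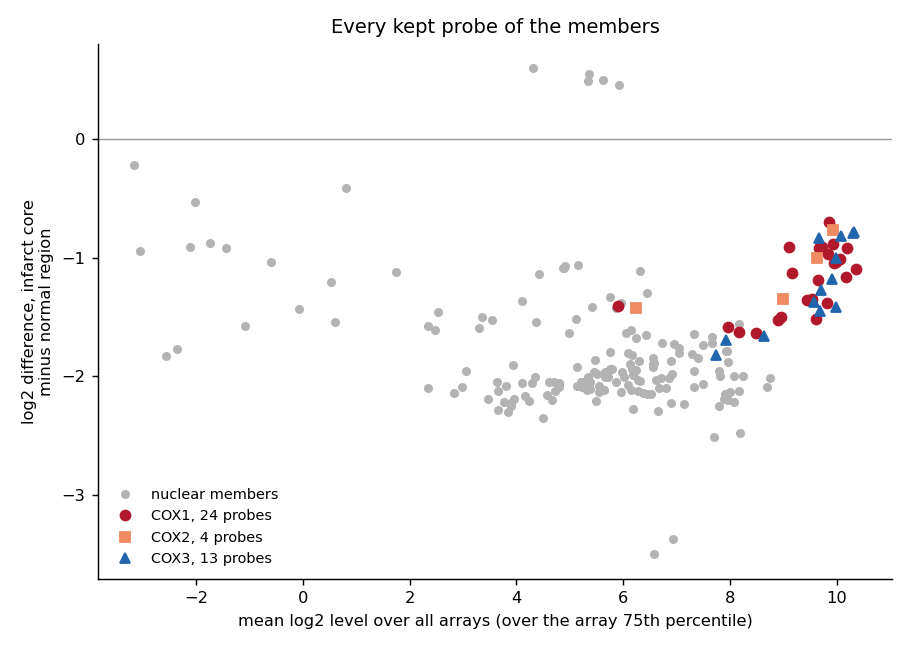
Log2 difference of infarct core minus normal region (vertical axis) against mean log2 level over all arrays (horizontal axis) for each kept probe of the 48 genes. Grey circles are nuclear genes, and coloured symbols are COX1 (24 probes), COX2 (4) and COX3 (13). The mitochondrially encoded probes run from -1.82 to -0.69, the dimmer probes of COX2 and COX3 lie lower than the brightest, and the 2 lowest points are the probes of COX8H at -3.50 and -3.37.

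All 13 measured nuclear ATP synthase genes of the symbol rule fell, with a median of -1.88 and a narrow range of -2.25 to -1.54. ATP5G1, 1 of 3 genes for the same c subunit of the membrane ring, had 4.66 to 8.57 in the infarct core (median 6.36) and 8.15 to 9.45 in the normal region (median 9.08) and fell by 2.25 ± 0.35 (limma adjusted p = 1.87e-05). ATP5G3 fell by 1.79 ± 0.23 and ATP5G2 by 1.64 ± 0.21. The catalytic beta subunit ATP5B fell by 2.12 ± 0.29 and the alpha subunit ATP5A1 by 1.88 ± 0.29.

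In the central stalk, ATP5D (delta) fell by 2.14 ± 0.33 and ATP5E (epsilon) by 1.55 ± 0.21, though the second, dim probe of ATP5E gave -0.41. In the outer stalk, ATP5O fell by 2.02 ± 0.28 and ATP5F1 by 1.98 ± 0.24. ATP5I, ATP5J2 and ATP5L, small subunits of the membrane part, fell by 2.13, 1.81 and 1.61. ATP5S, the coupling factor B, fell least, as read by a single probe with a mean level of 0.61. It had -0.92 to 0.37 in the infarct core and 0.71 to 1.85 in the normal region, with no overlap, and fell by 1.54 ± 0.20.

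Between border zone and normal region none of the 48 genes passed the test. By limma 0.466% of all probes were called, 0.00873% as lower and 0.457% as higher. The median difference of border zone minus normal region was -0.26 over the 48 genes and -0.02 over all probes, and 47 of 48 point estimates were negative. At an unadjusted p under 0.05 there were 4 of the 48 genes, against 14.3% of all probes. Without pig 40 there were 11 of the 48, and the share of all probes in that fit is not given here, so the 14.3% does not apply to it. Among the 4 were NDUFA9 at -0.57 ± 0.24 (limma adjusted p = 0.292), SDHA at -0.63 ± 0.30 (adjusted p = 0.337) and NDUFAB1 at -0.49 ± 0.23 (adjusted p = 0.343). The median interval of the difference was 1.02 wide on the log2 scale at 95% confidence. The median was -0.42 within scan series 1 and -0.21 within scan series 2. Without pig 18 it was -0.09, without pig 40 it was -0.43, and with normexp background correction it was 0.01.

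Infarct core and border zone could be compared in all 9 pigs. Here 45 of 48 genes fell in the infarct core and none rose, with 23.6% of all probes called lower by limma and 23% higher. The median difference was -1.50 over the 48 genes and -0.01 over all probes, -1.60 within scan series 1 and -1.29 within scan series 2. Without pig 40 it was -1.17. The 3 genes that did not pass were COX6A1 at 0.18 ± 0.13 (limma adjusted p = 0.29), NDUFAB1 at -0.38 ± 0.20 (adjusted p = 0.124) and NDUFA4L2 at -0.57 ± 0.25 (adjusted p = 0.0679). NDUFA4L2 passed, among other settings, without pig 40 (-0.80, adjusted p = 0.02) and within scan series 2 (-0.94, adjusted p = 0.0347), and COX6A1 passed as higher without pig 40 (0.35, adjusted p = 0.0268). Without pig 10 the differences were 0.08 for COX6A1 (adjusted p = 0.721), -0.25 for NDUFAB1 (adjusted p = 0.302) and -0.31 for NDUFA4L2 (adjusted p = 0.343).

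COX8H again fell most, by 3.16 ± 0.56 (limma adjusted p = 0.000121), while without pig 40 it fell by 2.06. It was lower in the infarct core in 9 of 9 pigs, by 0.56 in pig 15 and by 8.37 in pig 40. COX7A1 fell by 2.20 ± 0.36 (adjusted p = 5.96e-05); its difference was -1.52 without pig 40. COX7A2 fell by 1.09 ± 0.20 and by 0.72 without pig 40. For 1 of the 48 genes every infarct core array lay below every border zone array, against 0.39% of all probes separated as lower and 1.46% as higher. The mitochondrially encoded genes were among those that moved by over 1.5 times without pig 40. COX1 fell by 0.96 with it and 0.58 without it, COX3 by 0.67 and 0.37, and COX2 by 0.56, against a value of -0.34 without it that did not pass (adjusted p = 0.0732). Within scan series 2 none of them passed, with COX1 at -0.59, COX2 at -0.35 and COX3 at -0.35, nor did COX7A2 at -0.71.

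Paralogous pairs were then compared within each pig, by the change of each gene (infarct core minus border zone) and the difference of the first gene's change minus the second's. An exact two-sided sign-flip test over 9 pigs was used, which can give no p below 0.00391, and p-values were adjusted over the 4 measured pairs. COX7A1 changed by -1.99 ± 1.56 and COX7A2 by -0.95 ± 0.85 (SD, n = 9), a difference of -1.04 ± 0.80 with COX7A1 the lower in 8 of 9 pigs (exact p = 0.00781, adjusted p = 0.0156). The exception was pig 15, in which COX7A1 changed by -0.06 and COX7A2 by -0.16. Without pig 40 the difference was -0.85 (exact p = 0.0156, adjusted p = 0.0313).

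NDUFA4 changed by -1.65 ± 1.19 and NDUFA4L2 by -0.61 ± 0.62, a difference of -1.03 ± 1.47 in the same direction in 9 of 9 pigs (SD, exact p = 0.00391, adjusted p = 0.0156). The probe of NDUFA4 was bright, with a mean level of 8.76, and that of NDUFA4L2 dim, at 1.75. Whether probe brightness had a part in the difference was not tested. In pig 40 NDUFA4 changed by -4.27 and NDUFA4L2 by 0.49. Without pig 40 the mean difference was -0.57 (exact p = 0.00781, adjusted p = 0.0313), and with quantile scaling it was -0.52 and did not pass (exact p = 0.188). The ATP synthase c subunit genes differed less. ATP5G1 minus ATP5G2 was -0.48 ± 0.48 (exact p = 0.0156, adjusted p = 0.0208), in 7 of 9 pigs. ATP5G3 minus ATP5G2 was -0.19 ± 0.22 (exact p and adjusted p = 0.0352), in 8 of 9 pigs, and did not pass (adjusted p of 0.0547 to 0.0703) when any of pigs 10, 12, 13, 14, 16, 18 or 40 was left out.

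**Figure D4:**
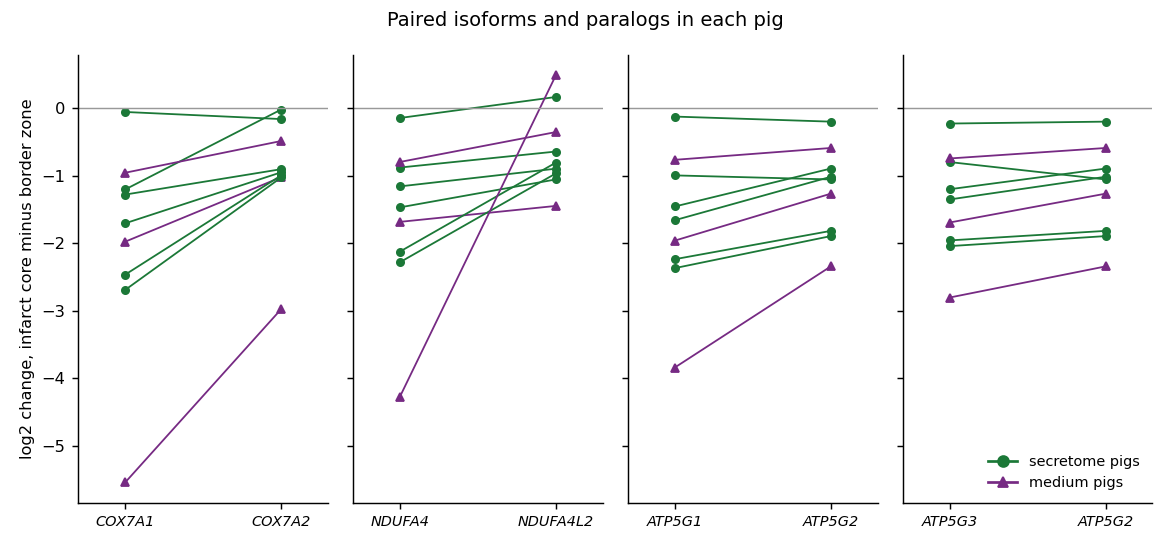
Log2 change, infarct core minus border zone (vertical axis), of paired genes in each of the 9 pigs, with a line joining the 2 genes of a pig. Circles are the 6 secretome pigs and triangles the 3 medium pigs. COX7A1 lies below COX7A2 in 8 of 9 pigs and NDUFA4 below NDUFA4L2 in 9 of 9, and in each of these panels medium pig 40 has the steepest line. ATP5G1 lies below ATP5G2 in 7 of 9 pigs and ATP5G3 below ATP5G2 in 8 of 9.

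The amount by which the genes fell differed widely between pigs. The median over the 48 genes of infarct core minus border zone was -0.09 in pig 15, -0.94 in pig 11, -1.11 in pig 12, -1.39 in pig 16, -1.88 in pig 14 and -1.94 in pig 13 of the secretome arm. In the medium arm it was -0.66 in pig 18, -1.62 in pig 10 and -2.77 in pig 40. The arms thus overlapped, with a secretome pig at the small end and a medium pig at the large end. The mean of the 11 cardiomyocyte markers changed alongside, by -0.15 in pig 15, -0.83 in pig 18 and -5.97 in pig 40.

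**Figure D5:**
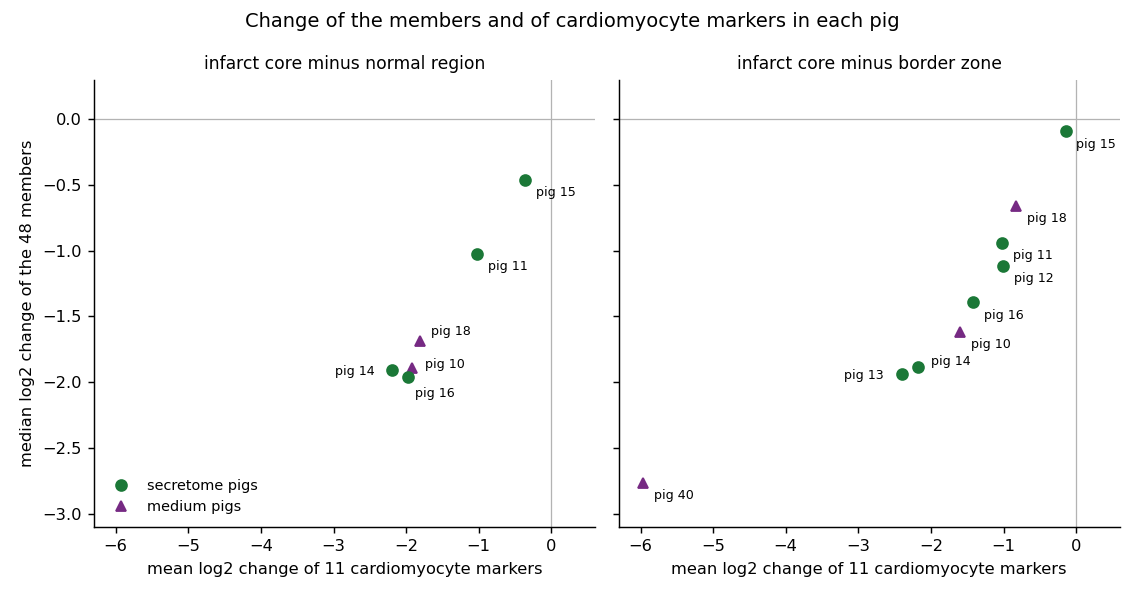
Median log2 change of the 48 genes (vertical axis) against the mean log2 change of 11 cardiomyocyte markers (horizontal axis) in each pig, for infarct core minus normal region (left, 6 pigs) and infarct core minus border zone (right, 9 pigs). Circles are secretome pigs and triangles medium pigs. In the right panel the points run from pig 15 at -0.15 and -0.09 down to pig 40 at -5.97 and -2.77, with pigs 11 and 12 close together.

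Over the 24 arrays, the median level of the 48 genes had a Pearson's r of 0.89 with the mean of the cardiomyocyte markers and -0.82 with that of the fibroblast markers. These are descriptions over arrays that share regions, pigs and scan series. The spread between pigs was largest where the genes were lowest. The SD over arrays had a median of 0.71 for the infarct core, 0.52 for the border zone and 0.25 for the normal region, and it was larger in the infarct core than in the normal region for 46 of 48 genes.

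The comparison of the arms asks whether these genes differed with the secretome. None of the 48 passed in any region. Limma called 0.0146% of all probes in the infarct core, all of them lower, while the border zone had 0% and the normal region 0%. At an unadjusted p under 0.05 the counts were 0 genes in the infarct core, against 4.9% of all probes, 1 (COX6A1) in the border zone, against 7.2%, and 0 for the normal region, against 1.73%. In the infarct core 47 of 48 point estimates were higher with secretome, with a median difference of 0.57, against -0.04 over all probes. Within scan series 1 that median was 0.39 and within scan series 2 it was 0.67. It was 0.29 without pig 40, 0.11 without its infarct core array alone, and -0.47 with slide as a covariate. The median for the border zone was 0.08, or 0.38 without pig 40, and that for the normal region -0.02.

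Markers of cell types also differed in sign between the arms in the infarct core. All 11 cardiomyocyte markers were higher with secretome as point estimates, with a median of 1.80 and 5 at an unadjusted p under 0.05, and none passed after adjustment. These values include pig 40. The mean level of the cardiomyocyte markers was 7.26, 6.80 and 2.51 in the infarct cores of medium pigs 10, 18 and 40. In the secretome pigs it was 6.29 to 8.68, so only pig 40 lay outside that range. All 12 macrophage markers were lower, with a median of -0.70 and 4 at that unadjusted p, and 10 of 12 fibroblast markers were lower (median -0.19). The 7 endothelial markers (median 0.36) and the 5 of smooth muscle and pericytes (median 0.17) were all higher. Their part in the differences of the 48 genes was not tested.

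COX8H had 3.80 to 7.96 in the 6 secretome infarct cores (median 5.22), against 6.45, 4.80 and 0.09 in those of the medium pigs 10, 18 and 40. The arms overlapped except for pig 40, and the difference of 1.80 ± 1.17 (limma adjusted p = 0.974) had a 95% interval of -0.64 to 4.23. Without pig 40 it was -0.05 ± 0.88. COX7A1 had 5.99 to 8.81 with secretome (median 6.93) and 7.16, 6.71 and 3.99 with medium, a difference of 1.31 ± 0.75 with an interval of -0.25 to 2.87, and it was 0.33 ± 0.63 without pig 40. COX6A1 gave the smallest unadjusted p in the border zone. It had 5.10 to 6.01 with secretome (median 5.61) and 6.31, 5.75 and 7.29 with medium, a difference of -0.86 ± 0.28 (limma adjusted p = 0.662). Without pig 40 this difference was -0.44 ± 0.27, with no gene of the 48 at an unadjusted p under 0.05 in the border zone.

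Whether infarct core minus border zone differed between the arms was tested as an interaction. None of the 48 genes passed, with 0% of all probes called by limma and 2 of the 48 genes at an unadjusted p under 0.05, against 5.46% of all probes. They were COX6A1 (0.59 ± 0.27, adjusted p = 0.841) and COX7A2 (0.82 ± 0.39, adjusted p = 0.841), which without pig 40 had 0.24 ± 0.24 and 0.08 ± 0.32. The median interaction was 0.48, and it was 0.40 within scan series 1, 0.63 within scan series 2, -0.09 without pig 40, 1.00 without pig 18 and -0.09 with slide as a covariate. The median interval of a gene's difference was 1.85 wide on the log2 scale in the infarct core and 1.76 for the interaction, at 95% confidence.

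Genes that serve the same pathway but lie outside the symbol rule were counted from lists chosen with earlier results of these arrays known. In the infarct core against the normal region, 11 of 13 measured genes for ATP export, energy transfer and uncoupling fell and 1 rose. The muscle mitochondrial creatine kinase CKMT2 fell by 2.75 ± 0.53, the phosphate carrier SLC25A3 by 1.80 ± 0.29 and the outer membrane channel VDAC3 by 2.18 ± 0.28. The gene that rose was AK4, a mitochondrial adenylate kinase, by 1.62 ± 0.18 (limma adjusted p = 5.39e-07). The ADP/ATP carriers SLC25A31, SLC25A5 and SLC25A6 fell by 1.06 ± 0.33, 0.63 ± 0.25 and 0.32 ± 0.13, and SLC25A4 was listed but not measured.

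Of the genes for electron entry to ubiquinone and its synthesis, 9 of 10 measured fell. COQ10A, a ubiquinone-binding protein, fell by 2.80 ± 0.36 and ETFDH, which feeds electrons from fatty acid oxidation, by 1.87 ± 0.26, while COQ2, which acts early in ubiquinone synthesis, gave 0.11 ± 0.12 (adjusted p = 0.455). Of the regulators of mitochondrial gene expression, 4 of 6 measured fell. PPARGC1A, the coactivator of mitochondrial biogenesis, fell by 2.62 ± 0.48 (adjusted p = 0.000112), PPARA, a receptor that drives fatty acid oxidation, by 1.58 ± 0.42, and TFAM, which packs and transcribes mitochondrial DNA, by 0.77 ± 0.12. POLG, the polymerase that copies that DNA, gave -0.27 ± 0.22 and did not pass.

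All 4 measured genes of mitochondrial mass and structure fell, among them the citrate synthase gene CS, which fell by 2.14 ± 0.32, and the import receptor TOMM20 by 1.18 ± 0.24. Of the assembly and maintenance genes outside the rule, 4 of 5 measured fell, including ATPIF1, the inhibitor of the reversed ATP synthase, by 1.88 ± 0.27, and TACO1, which aids translation of COX1, by 2.07 ± 0.23. NUBPL, an iron-sulfur factor for complex I, gave -0.13 ± 0.38. Of the mitochondrially encoded subunits outside the rule, 9 of 10 measured fell. None of the genes in these lists passed in the border zone against the normal region.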

How the data were processed

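Per the labels, 100 ng of total RNA with an RNA integrity number above 6 was labelled per array. The deposited scanner files hold intensity values, whose processed signal, per the file headers, comes background-subtracted from Feature Extraction version 10.7.3.1. A value matrix normalized by the authors on the log2 scale was deposited too, and the submitters' processing notes name limma 3.14.4. Column medians are 7.684 to 7.692, and all 24 columns resembled their own scanner file most. How it was normalized is not given in the sources used here, so it served as an alternative.

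From the intensities, flagged spots were left out, spots of a probe averaged, and log2 ratios taken over the array's own 75th percentile. Symbols came from accessions (9197 probes), gene IDs (1500) or names in the files (4068), and 29 probes had several and 28809 none. Of the probes of the genes described, 123 were named by accession, 3 by gene ID and 84 by the name in the scanner files. Group means per region and arm were fitted with limma 3.58.1 (lmFit and eBayes, R 4.3.3, statmod 1.5.0 and the data.table package, version 1.17.8) over 34360 kept probes, in which arrays of a pig shared a random effect (correlation 0.548), and the threshold was 0.05 for the adjusted p (Benjamini-Hochberg). The number of arrays limits the precision. Summaries and figures were made with pandas 2.3.3, numpy 2.4.6 and matplotlib 3.10.9 under Python 3.11.15. The fit was also run on simulated data that held a pig effect but no scan series effect, and the outcome is not given here.

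Arrays deviated together within a pig and within a scan series. All 21 of 21 same-pig pairs correlated above 0.1 (mean 0.583). So did 93 of 94 pairs of different pigs in the same scan series (mean 0.439), and 0 of 118 across series (mean -0.454). Pig numbers in the labels give the pairing. Genes were named by rule: in each functional group those with the largest and smallest difference, all isoform pairs, and every gene past the threshold elsewhere, with pathway genes from lists. The genes and lists were chosen with earlier results of these data known. Alternatives were other scalings, the authors' values, other probe filters and probe rules, other pig blocks, scan series, slide and leaving out each pig. Leaving out the infarct core array of pig 40 was added after seeing the data. A member that is included in the counts and medians is not reported here by itself.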

Additional observations from a re-analysis of the deposited data

Results flagged for a closer look

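In the normal region of the secretome arm (4 arrays), 6 levels lay far from the rest of their group, out of 144 groups examined over 48 genes and 3 groups of arrays. Chance flags about 1 in 20 groups, which is 7.2 here. Pig 16 was lowest for NDUFAF3 at 4.66 (next 5.05), for COX7A2 at 6.52 (next 6.89) and for ATP5D at 6.89 (next 7.78), and highest for NDUFAF5 at 0.13 (next -0.55). Pig 15 was highest for UQCR10 at 8.42 (next 8.20) and for COX6A1 at 6.04 (next 5.48). No such level was found in the infarct core or border zone groups of the secretome arm, and the groups of the medium arm, with 3 or fewer arrays, were not examined.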

How the results depend on the processing

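Counts of genes past the threshold kept within 1.5 times of those reported under every alternative run: 44 to 48 in the infarct core against the normal region, 39 to 47 against the border zone, and 0 in each other comparison. Leaving out each pig gave 47 to 48 and 45 to 46. A fixed replicate block for pig gave 48 and 47, and no replicate block 46 and 44. Normexp background correction and a filter on well above background were among these, and the authors' values held 46 of the 48 genes. Sizes depended on the scaling: the median of infarct core minus normal region was -1.20 with quantile scaling and -1.17 with the authors' values, against -1.76, and 23 gene values moved by over 1.5 times under each. The median of all probes was -0.21 with normexp, against -0.05. Signs turned for COX2 with quantile scaling (0.045 against the normal region and 0.061 against the border zone), COX3 with the authors' values (0.033 against the normal region) and COX6A1 with normexp (-0.074 against the border zone). The cause was not tested.

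For the paired isoforms, COX7A1 minus COX7A2 was -1.17 within scan series 1 and -0.88 within series 2, and neither passed. NDUFA4 minus NDUFA4L2 was -0.52 with quantile scaling, -1.44 within series 1 and -0.53 within series 2, ATP5G1 minus ATP5G2 -0.67 within series 1, -0.25 within series 2 and -0.48 without the replicate block, and ATP5G3 minus ATP5G2 -0.18 with quantile scaling, -0.28 within series 1, -0.085 within series 2 and -0.19 without the replicate block, none of which passed. With 5 and 4 pigs the series alone cannot reach the threshold (smallest exact p of 0.0625 and 0.125). Leaving out each pig gave -1.18 to -0.85 for COX7A1 minus COX7A2, -1.13 to -0.57 for NDUFA4 minus NDUFA4L2, -0.55 to -0.35 for ATP5G1 minus ATP5G2 and -0.25 to -0.16 for ATP5G3 minus ATP5G2. The authors' values held no ATP5G3 probe.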
